A study of Mus musculus with 2 samples.

Results

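Fibroblasts of the meninges and of the spaces around vessels were examined in single-cell RNA sequencing of mouse cortex at postnatal day 5. They were taken as droplet barcodes with at least 4 of 10 fibroblast genes detected (Dcn, Lum, Col1a1, Col1a2, Col3a1, Igf2, Slc6a13, Ogn, Aldh1a2 and Islr). They also had at least 5 unique molecular identifiers (UMIs) of Col1a1, Col1a2, Col3a1 and Dcn together, and at most 1 UMI of the pericyte genes Kcnj8 and Abcc9. This took 251 of 21126 kept barcodes, 181 of 10102 in the Mut library and 70 of 11024 in the WT library.

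The Mut library came from cortex carrying a mutation of Katnal2, whose protein resembles the catalytic subunit of the microtubule-cutting enzyme katanin, and the WT library came from wild-type cortex. The sources used here give neither the mutated part of the gene nor the strain. Both tissues were digested with trypsin, then with type-II collagenase, and passed through a strainer. Single cells were sorted by fluorescence, with a gate that is not given, and entered 10x Genomics droplets. The labels also name frozen storage after dissection. There is 1 library per genotype. The values below therefore have no replicate check and no test. Their intervals cover counting error only, and genotype and library cannot be told apart.

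The meninges wrap the brain in layers called pia, arachnoid and dura, and fibroblasts build the collagen-rich matrix of each layer and continue inward along larger vessels. In the developing cortex they secrete basement membrane, retinoic acid, bone morphogenetic proteins and the chemokine Cxcl12, which act on the underlying glia and neurons. The arachnoid also holds a barrier layer whose cells carry transporters and junction proteins.

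The Mut library held 97891513 UMIs and the WT library 93664707, and a kept barcode had a median of 7625.5 UMIs in Mut and 6446 in WT. Fibroblast barcodes had a median of 8657 UMIs and 3116 genes in Mut, against 9252.5 UMIs and 3070 genes in WT. Their mitochondrial UMIs had a median of 4.07% in Mut and 5.36% in WT. Of the kept barcode sequences, 39 occurred in both libraries, among them those of 2 WT fibroblasts and of no Mut fibroblast. Katnal2 itself had 7 UMIs in Mut fibroblasts and 2 in WT fibroblasts, too few to check the labels.

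The fibroblast label held against genes that the choice of barcodes did not use. Of 18 further fibroblast genes, each with at least 30 UMIs, 15 stood at least 4-fold above all other kept barcodes in both libraries, against 3.98% of 8763 genes (8763 is the number with at least 30 UMIs over the fibroblasts of both libraries). Among them Pcolce, an enhancer of procollagen processing, had 335 UMIs per 1000000 (CPM) in Mut and 335 CPM in WT fibroblasts, against 3.34 and 3.84 CPM in the other barcodes of Mut and WT. Pdgfra, which oligodendrocyte precursors share, did not stand apart, with 202 CPM in Mut and 233 CPM in WT fibroblasts, against 197 and 196 CPM in the other barcodes of Mut and WT. Perivascular fibroblasts were not separated from meningeal ones.

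Barcodes near the limit on the sum of the 4 matrix genes were few. A fibroblast barcode had a median of 63 UMIs of the 4 matrix genes in Mut and 76 in WT, and 8 Mut and 4 WT barcodes had only 5 to 9. Outside the limit, 10 Mut barcodes and 1 WT barcode failed on this sum alone, with at most 4 and 3 UMIs. The limit on Kcnj8 and Abcc9 alone kept out 13 Mut and 26 WT barcodes, which had a median of 13 UMIs of these genes in each library.

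A second cell type's markers were present in a part of the barcodes. At least 4 markers of mural, endothelial, macrophage, microglial, oligodendrocyte-lineage, neuronal or astroglial lists, or at least 100 UMIs of the choroid plexus gene Ttr, were found in 54 of the 181 Mut (29.8%) and 16 of the 70 WT (22.9%) fibroblast barcodes. These are called mixed barcodes below, and without them 127 Mut and 54 WT barcodes remained. UMIs of both Xist and Y-linked genes, which no single cell should give, were found in 7.73% of Mut and 2.86% of WT fibroblasts, and in 3.15% and 0% once mixed barcodes were left out. The markers in these barcodes differed by library. The endothelial list summed to 657 CPM in Mut and 302 CPM in WT fibroblasts, and to 161 and 181 CPM without mixed barcodes. The astroglial list summed to 4223 CPM in Mut and 2777 CPM in WT, and to 2131 and 1871 CPM without them. The choroid plexus list summed to 9022 CPM in Mut and 528 CPM in WT, and to 429 and 621 CPM without them. Ttr gave 16085 of its 17050 UMIs in Mut, whereas Rarres2, which fibroblasts also express, gave 213 of its 380 UMIs in WT. In the other direction, the border-associated macrophage list summed to 228 CPM in Mut and 408 CPM in WT, and to 21.6 and 12.5 CPM without them. The main comparisons below are therefore also given without mixed barcodes.

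Collagens and their partners stood far above the other barcodes, as the rule itself ensures for Dcn, Col1a1, Col1a2 and Col3a1. Dcn, the small proteoglycan decorin that binds collagen fibrils, had 2585 CPM in Mut and 3178 CPM in WT fibroblasts, against 0.948 and 1.96 CPM in the other barcodes of Mut and WT. Col1a1 and Col1a2, the chains of type I collagen, kept nearly the same ratio of UMIs to each other, 0.451 in Mut and 0.459 in WT. Col6a1, a chain of the microfibrillar type VI collagen that the rule did not use, had 379 CPM in Mut and 399 CPM in WT fibroblasts and stood 6.10 log2 units above the other barcodes in the library where the distance was smaller. The elastic fibre gene Mfap4 had 355 CPM in Mut and 524 CPM in WT.

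Basement membrane genes were well represented. Lama1, the laminin chain of the pial basement membrane, had 121 CPM in Mut and 138 CPM in WT fibroblasts. Col4a1, a type IV collagen chain that vascular cells also make, had 1100 CPM in Mut and 1521 CPM in WT. Neither list differed much between the libraries. None of 12 fibrillar or fibril-associated collagens and 18 basement membrane genes with at least 30 UMIs was 1.5-fold higher or lower in Mut. Over 8763 genes, 10.2% were at least 1.5-fold higher and 3.51% at least 1.5-fold lower. The 12 collagens include Col1a1, Col1a2 and Col3a1, which the rule used, and leave out Col22a1, which is given below. The median log2 ratio of Mut to WT, after adding 5 CPM, was -0.16 for the 12 collagens and -0.13 for basement membrane genes. Over all genes it was 0.05. Without mixed barcodes the medians were 0.10 and -0.02, so the sign turned for the collagens.

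Without mixed barcodes, 2 of 11 collagens of this list were at least 1.5-fold higher in Mut, where 11.6% of all genes were. They were the fibril-associated collagens Col12a1 and Col14a1, which coat fibrils of type I collagen. Col12a1 had 148 CPM in Mut and 108 CPM in WT fibroblasts, a log2 ratio of 0.43, which was 1.14 without mixed barcodes. Col14a1 had 62.4 CPM in Mut and 43.1 CPM in WT, with log2 ratios of 0.49 and 1.41.

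Secreted signals formed the second part of the profile. Cxcl12, which guides migrating neurons and supports the cells under the pia, had 1439 CPM in Mut and 1348 CPM in WT fibroblasts, against 26.1 and 28.8 CPM in the other barcodes. Wnt4, a secreted Wnt ligand, had 580 CPM in Mut and 674 CPM in WT. Bmp6, a bone morphogenetic protein, had 206 CPM in Mut and 253 CPM in WT. Igf2, an imprinted growth factor that the rule used, had 2083 CPM in Mut and 2548 CPM in WT. These 4 genes lay within 1.5-fold between the libraries. Of 32 secreted signals, 5 were at least 1.5-fold higher and 5 at least 1.5-fold lower in Mut, against 10.2% and 3.51% of all genes.

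Retinoid genes were likewise at similar levels. Aldh1a2, the retinoic acid-synthesising enzyme that the rule used, had 328 CPM in Mut and 320 CPM in WT fibroblasts, and 0.266 and 0.119 CPM in the other barcodes. Crabp2, a retinoic acid-binding protein that the rule did not use, had 172 CPM in Mut and 189 CPM in WT. Of 14 retinoid genes with at least 30 UMIs, 2 were at least 1.5-fold higher and 1 at least 1.5-fold lower in Mut. The shares over all genes were 10.2% and 3.51%, and the median log2 ratio of the 14 was 0.07. One of the 2 higher genes was Dhrs3, which reduces retinal to retinol. It had 47.6 CPM in Mut and 18.1 CPM in WT, and a log2 ratio of 1.10 without mixed barcodes.

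Transcription factors of the meningeal mesenchyme were present in both libraries. Foxd1 had 331 CPM in Mut and 333 CPM in WT fibroblasts, and Tbx18 had 261 CPM in Mut and 304 CPM in WT. Foxc1, whose loss disrupts the meninges in mice, had 310 CPM in Mut and 249 CPM in WT, a log2 ratio of 0.31. Of 31 factors with at least 30 UMIs, 3 were at least 1.5-fold higher and 3 at least 1.5-fold lower in Mut. The shares over all genes were 10.2% and 3.51%, and the median log2 ratio of the 31 was 0.02.

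**Figure D1:**
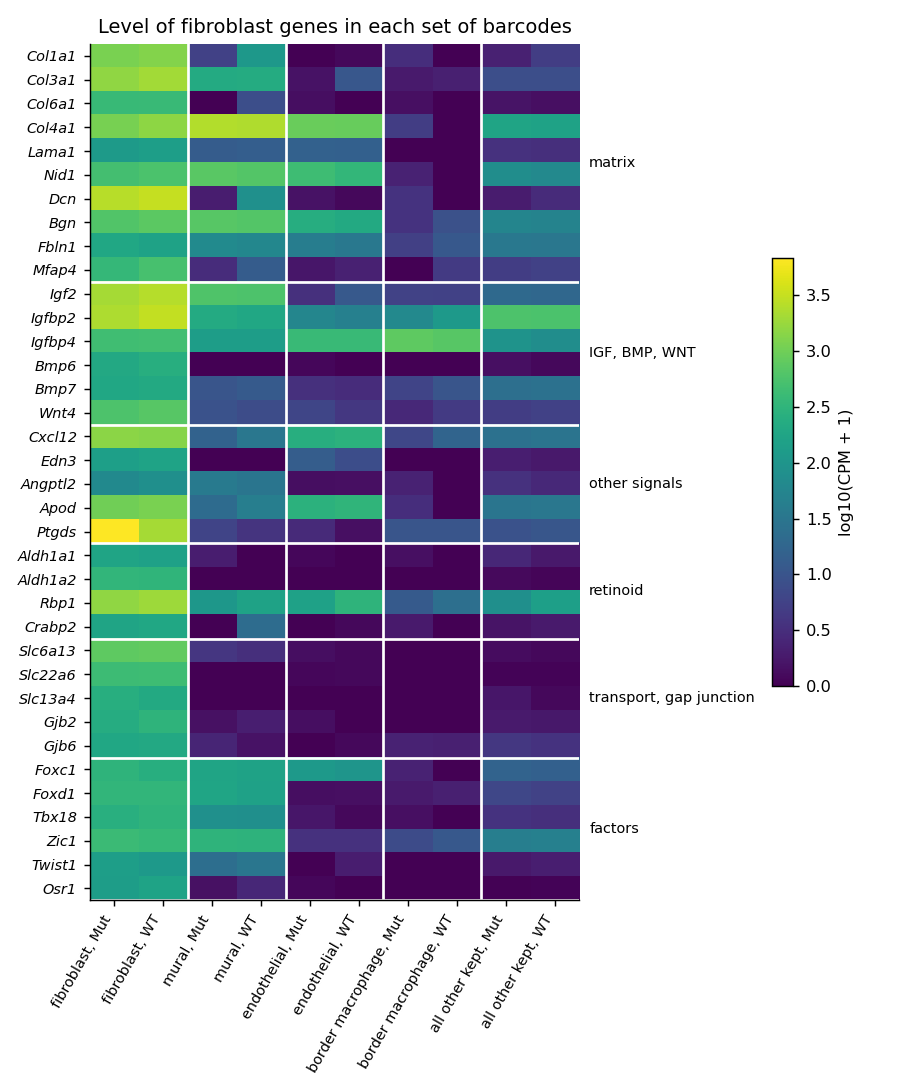
Levels of 36 genes, grouped by role, in each set of barcodes of each library, with colour giving log10(CPM + 1). The leftmost pair of columns, Mut and WT fibroblasts, is bright for genes such as Dcn, Wnt4, Aldh1a2 and Slc6a13 that are dark in mural, endothelial and macrophage barcodes, whereas Col4a1 and Nid1 are bright in vascular barcodes too.

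Transporters divided the fibroblasts. Slc6a13, a transporter of GABA and taurine that the rule used, had at least 1 UMI in 137 of 181 Mut (75.7%) and 58 of 70 WT (82.9%) fibroblast barcodes. In border-associated macrophages, which share the tissue, it was found in 0 of 274 Mut barcodes, which allows a share of up to 1.09%, and in 0 of 112 WT barcodes, which allows 2.68%. Since the rule counted Slc6a13, these shares are a description. The median depths of the macrophages were 7606 UMIs in Mut and 7288.5 in WT. Slc22a6, an organic anion transporter, had 418 CPM in Mut and 445 CPM in WT fibroblasts, against 0.104 and 0.0835 CPM in the other barcodes. Without mixed barcodes, all 104 barcodes with the laminin gene Lama1 also had Slc6a13. By contrast, 0 of the 19 barcodes with the organic cation extruder Slc47a1 had Slc6a13, whereas 151 of the 162 others did. For Ecrg4, a secreted peptide precursor, the limit mattered. At 1 or more UMIs of Ecrg4, 8 of 30 barcodes had Slc6a13, 4 of 24 in Mut and 4 of 6 in WT. At 3 or more UMIs of Ecrg4, 0 of 22 barcodes had Slc6a13, whereas 151 of the 159 others did.

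The stretches before the RefSeq start sites of Slc6a13, Ptgds and Ecrg4 are shown because the groups described next differ in their levels. Slc6a13 was found in most fibroblasts, Ptgds leads 1 group, and Ecrg4, which leads another, was found at 3 or more UMIs in barcodes without Slc6a13. The sequences are from RefSeq (GRCm38.p6), 150 bases each, 5′ to 3′ on the strand of the gene and ending at the base before the start. Slc6a13 lies on the plus strand at chr6:121300138-121300287, Ptgds on the minus strand at chr2:25469750-25469899 and Ecrg4 on the plus strand at chr1:43730452-43730601. Capitals mark TAAATA, an AT-rich run of the TATA-box kind.
Slc6a13: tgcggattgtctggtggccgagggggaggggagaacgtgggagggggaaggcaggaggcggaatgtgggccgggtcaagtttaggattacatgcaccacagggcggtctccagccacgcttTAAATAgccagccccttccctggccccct
Ptgds: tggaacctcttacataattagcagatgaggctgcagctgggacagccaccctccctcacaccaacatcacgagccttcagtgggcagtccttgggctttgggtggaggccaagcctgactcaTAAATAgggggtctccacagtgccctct
Ecrg4: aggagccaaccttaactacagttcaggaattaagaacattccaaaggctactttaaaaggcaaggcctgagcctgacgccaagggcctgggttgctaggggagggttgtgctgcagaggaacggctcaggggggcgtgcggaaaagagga
The run TAAATA was looked for after these sequences had been seen, on both strands, together with TATAA, which can overlap it, CCAAT and the forkhead-type GTAAACA. It begins 29 bases before the Slc6a13 start and 28 bases before the Ptgds start, and none of the 4 runs is in the Ecrg4 window. Over 27025 genes, TAAATA is in 7.36% of such windows, TATAA in 14.7%, CCAAT in 25.3% and GTAAACA in 1.72%. Of the 30 genes that stood farthest above the other barcodes, 23 had a window, and 3 of these held TAAATA. A match is a run of letters only.

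Grouping the 181 fibroblast barcodes without mixed ones by expression gave 5 groups, which are called by their leading genes and not by a layer of the meninges. Their genes are a description, since values of the same barcodes made the groups, and so are their sizes. Genes of the rule, Slc6a13 among them, and the cell division and immediate early lists did not enter the grouping. The group led by Ecrg4 and Mgp held 21 of the 127 Mut and 4 of the 54 WT barcodes, that led by Coch and Notum 20 Mut and 5 WT, and that led by Ube2c and Hist1h1b 5 Mut and 7 WT. The group led by Fabp5 and Cebpb held 50 Mut and 19 WT barcodes, and that led by Ptgds and Cyp26b1 31 Mut and 19 WT. Values over all fibroblasts of a library carry this composition.

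The largest group, led by Fabp5 and Cebpb, had 69 barcodes and held the common profile, with 1293 CPM of Slc6a13, 1045 CPM of Wnt4 and 447 CPM of Aldh1a2. A group of 25 led by Coch and Notum, the secreted Wnt antagonist, had the highest Col4a1 and Lama1 of the 5 groups. Coch was found in only 9 and Notum in 19 of its barcodes. The group had 3203 CPM of Col4a1 and 389 CPM of Lama1, against 777 and 104 CPM in the group led by Ptgds. It also had 1912 CPM of S100a6 and 951 CPM of Serpine2. Of the 8 pial markers, 7 were found in at least 10% of its barcodes, as were 8 in the group led by Ube2c and 6 in each of those led by Fabp5 and by Ptgds.

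A group of 50 was led by Ptgds, which makes prostaglandin D2 and is abundant in arachnoid, and by Cyp26b1, which degrades retinoic acid. Ptgds was found in 41 and Cyp26b1 in only 11 of these barcodes. The group had 23662 CPM of Ptgds, against 1017 CPM in the group led by Fabp5. Wnt6 stood at 238 CPM, the sulfate transporter Slc13a4 at 589 CPM and Crabp2 at 404 CPM.

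The group led by Ecrg4 and Mgp lacked several genes that the others shared. Its 25 barcodes had 6383 CPM of Mgp, the matrix Gla protein that inhibits calcification, 2266 CPM of Ecrg4, 1636 CPM of Fxyd5 and 1270 CPM of Ccn3. They kept the fibroblast genes Dcn, at 4110 CPM, and Col1a1, at 1709 CPM. No UMI of Slc6a13, Slc22a6, Slc6a20a or Lama1 was found in them, and Wnt4 and Aldh1a2 stood at 3.66 CPM each. Of the 10 dural markers 9, and of the 12 arachnoid markers 10, were found in at least 10% of these barcodes. The arachnoid barrier genes Cdh1, the E-cadherin gene, and Cldn11, a claudin, had 128 and 362 CPM there, and Slc47a1 had 318 CPM and was at 0 in the other 4 groups. A zone name was therefore not given. A last group of 12, led by Ube2c and Hist1h1b, had 933 CPM of Top2a, and all 24 genes of the cell division list were found in at least 10% of its barcodes.

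**Figure D2:**
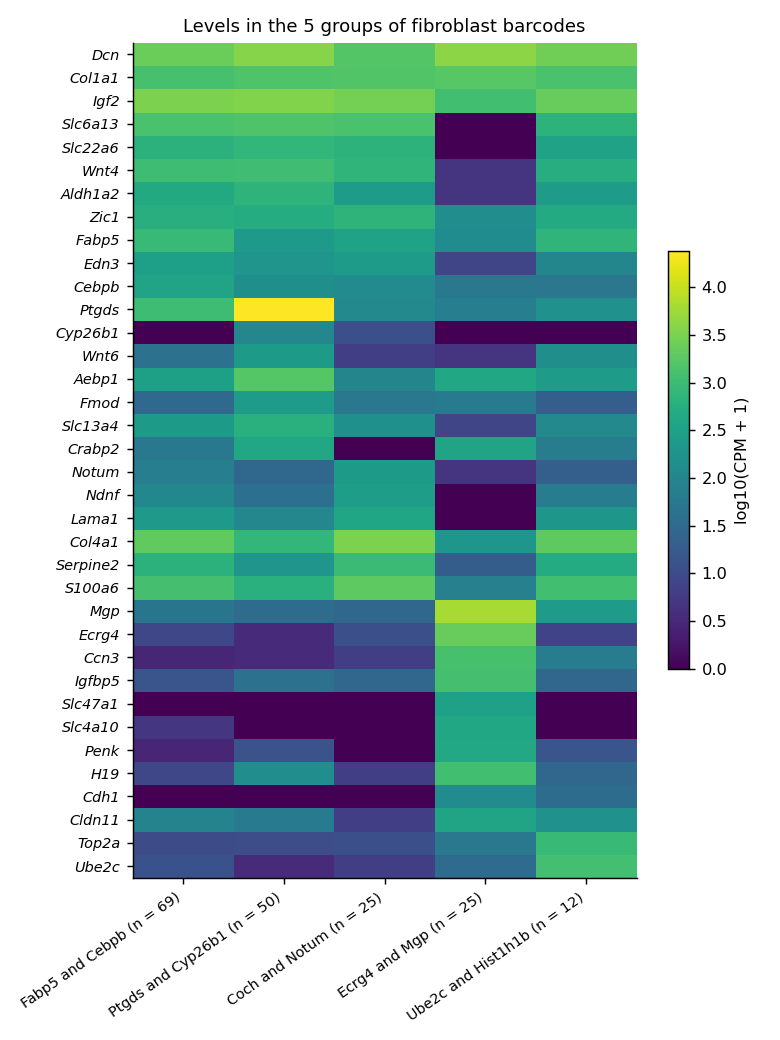
Levels of 36 genes in the 5 groups of fibroblast barcodes, with colour giving log10(CPM + 1) over the barcodes of a group in both libraries and n the number of barcodes. The column led by Ecrg4 and Mgp is dark for Slc6a13, Slc22a6, Wnt4 and Lama1 and bright for Mgp, Ccn3 and Slc47a1.

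Fibroblasts made up a larger share of the Mut library than of the WT library, and the shares lay far apart in male cells and together in female cells. They were 1.79% of kept barcodes in Mut (95% Clopper-Pearson interval 1.54 to 2.07) and 0.635% in WT (0.495 to 0.802), a ratio of 2.82 with an exact conditional interval of 2.13 to 3.77. Among female cells, those with Xist and no Y-linked UMI, the shares were 1.41% in Mut (74 of 5248) and 1.41% in WT (54 of 3822), a ratio of 0.998 (0.693 to 1.44). Among male cells, those with a Y-linked UMI and no Xist, they were 2.54% in Mut (70 of 2757) and 0.211% in WT (9 of 4258), a ratio of 12 (5.98 to 27.4). Without mixed barcodes the ratios were 2.57 over all cells, 0.971 in female cells and 11 in male cells. The limit on Kcnj8 and Abcc9 alone kept out 13 Mut and 26 WT barcodes, beside 181 Mut and 70 WT fibroblasts. No alternative relaxed it, so its part in the ratios was not tested.

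The split between sexes ran in opposite directions in the libraries. In Mut, female cells held 0.555 times the fibroblast share of male cells (0.395 to 0.781), and in WT 6.68 times (3.27 to 15.4). Border-associated macrophages, which live in the same membranes, had a ratio of Mut to WT of 2.67 over all cells, 1.42 in female cells and 5.05 in male cells. Vascular cells had ratios nearer to 1 than fibroblasts over all cells and in male cells. Mural cells had ratios of 1.20, 0.940 and 1.31, and endothelial cells 1.32, 1.26 and 1.14, in all, female and male cells. How many animals of each sex a library holds, and how much of the membranes was taken with each cortex, is not stated in the labels, and their part in these shares was not tested.

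**Figure D3:**
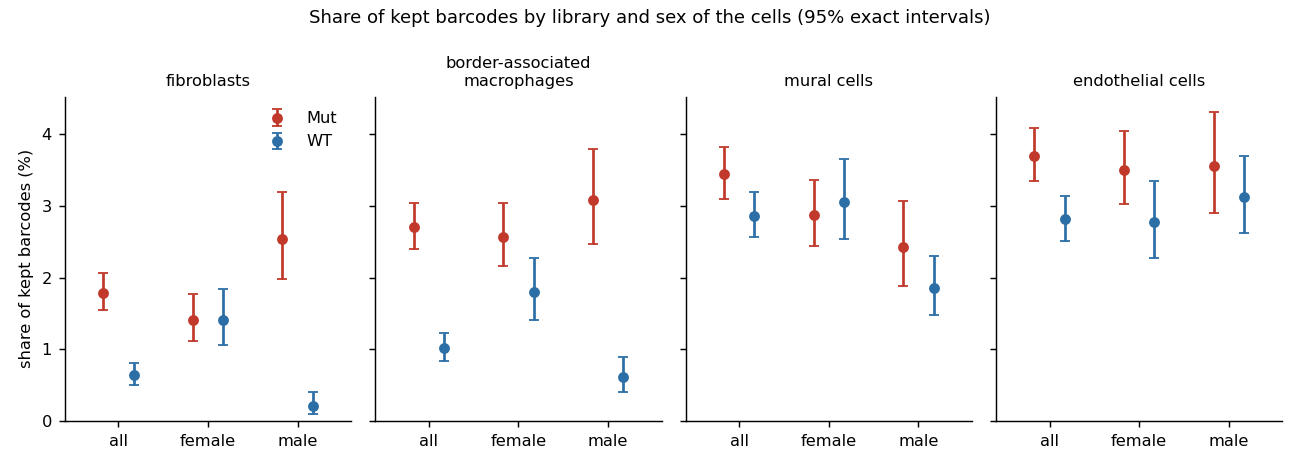
Share of kept barcodes, in percent, held by fibroblasts, border-associated macrophages, mural cells and endothelial cells, for all, female and male cells, with Mut left of WT in each pair and bars giving exact 95% intervals. The fibroblast points coincide in female cells, at 1.41% in both libraries, and lie apart in male cells, at 2.54% in Mut and 0.211% in WT.

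Within the fibroblasts, most genes were at similar levels in both libraries. Of 8763 genes, 7564 lay within 1.5-fold, 891 (10.2%) were at least 1.5-fold higher in Mut and 308 (3.51%) at least 1.5-fold lower. The higher genes were 74.3% of those past 1.5-fold, and 59.0% when each barcode was thinned to 1000 UMIs. Without mixed barcodes, 767 of 6587 (11.6%) were higher and 346 (5.25%) lower, and in female cells 632 of 6381 (9.9%) and 344 (5.39%). In male cells, where WT had 9 barcodes, 1199 of 4383 genes (27.4%) were higher and 589 (13.4%) lower. The genes named next were those whose ratio lay farthest from 1 by the bound of its counting interval, 12 in each direction, among the 4231 genes that passed the limits on UMIs, barcodes and kind of gene.

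Ptgds, the prostaglandin D2 synthase, was at least 1.5-fold higher in Mut in all 18 alternatives tried. These are not independent checks, since they reuse the same barcodes. Those that change only the minimum UMIs per gene leave a gene's own ratio as it was. Ptgds had 6786 CPM in Mut and 2063 CPM in WT, a ratio of 3.29 (3.12 to 3.47). The log2 ratio was 1.72, and it was 1.55 without mixed barcodes and 1.92 in female cells. The level came from few barcodes. At least 1 UMI was found in 72 of 181 Mut (39.8%) and 31 of 70 WT (44.3%) barcodes, against 5.84% of Mut and 5.36% of WT macrophages, and the median barcode had 0 in both libraries. The 5 highest barcodes held 61.9% of the Mut and 86.8% of the WT UMIs. At 50 UMIs or more stood 21 Mut and 4 WT barcodes. The share of barcodes with Ptgds was thus not higher in Mut, whereas the UMIs in its highest barcodes were.

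Several genes of the group led by Ecrg4 and Mgp, which held 21 Mut and 4 WT barcodes, were also higher in Mut. Mgp had 1788 CPM in Mut and 591 CPM in WT, a log2 ratio of 1.59, which was 2.25 without mixed barcodes and 1.84 in female cells. Slc47a1 had 63.0 CPM in Mut and 9.73 CPM in WT, a ratio of 6.47 (3.05 to 16.5), from 26 of 181 Mut and 4 of 70 WT barcodes. Its log2 ratio was 2.21, and 2.41 without mixed barcodes. Igfbp5, which binds insulin-like growth factors, had 234 CPM in Mut and 80.6 CPM in WT, with log2 ratios of 1.48 and 1.86. Without mixed barcodes and without that group, the log2 ratio of Mgp was -0.45. Mgp leads that group, so leaving it out removes the barcodes highest in Mgp by construction. Penk, the proenkephalin gene, and H19, an imprinted long RNA, were also highest in that group. Penk had 88.9 CPM in Mut and 29.2 CPM in WT, and H19 302 and 149 CPM. Ccn3, the third of its leading genes, had 267 CPM in Mut and 231 CPM in WT, a log2 ratio of 0.21 that was 1.09 without mixed barcodes and -0.34 in female cells.

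Icam1 and Cpe differed as well. Icam1, an adhesion molecule for leukocytes, had 66.7 CPM in Mut and 15.3 CPM in WT, with log2 ratios of 1.82, 1.49 without mixed barcodes and 2.19 in female cells. It was found in 51 of 181 Mut (28.2%) and 8 of 70 WT (11.4%) barcodes, whereas macrophages had it in 31.8% of Mut and 29.5% of WT barcodes. Cpe, a peptide-processing carboxypeptidase that is higher in other cells of the cortex, had 301 CPM in Mut and 91.7 CPM in WT, and 127 and 39.6 CPM without mixed barcodes.

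The remaining 6 genes of the higher set moved with mixed barcodes or are uncertain. Ttr, the choroid plexus carrier of thyroid hormone, had 16085 UMIs in Mut and 1 in WT, and 2 Mut barcodes held 10164 and 5889 of them. Without mixed barcodes it had 16 UMIs in Mut and 1 in WT. The transferrin receptor Tfrc, the astroglial enzyme Aldoc, the carbonic anhydrase Car2 and the metallothionein Mt3 had log2 ratios of 2.42, 1.82, 2.08 and 1.61. Without mixed barcodes these were 0.55, 0.37, -0.07 and -0.18. Gm10260, a near copy of a ribosomal protein gene whose reads may be divided between copies, had a log2 ratio of 1.74.

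**Figure D4:**
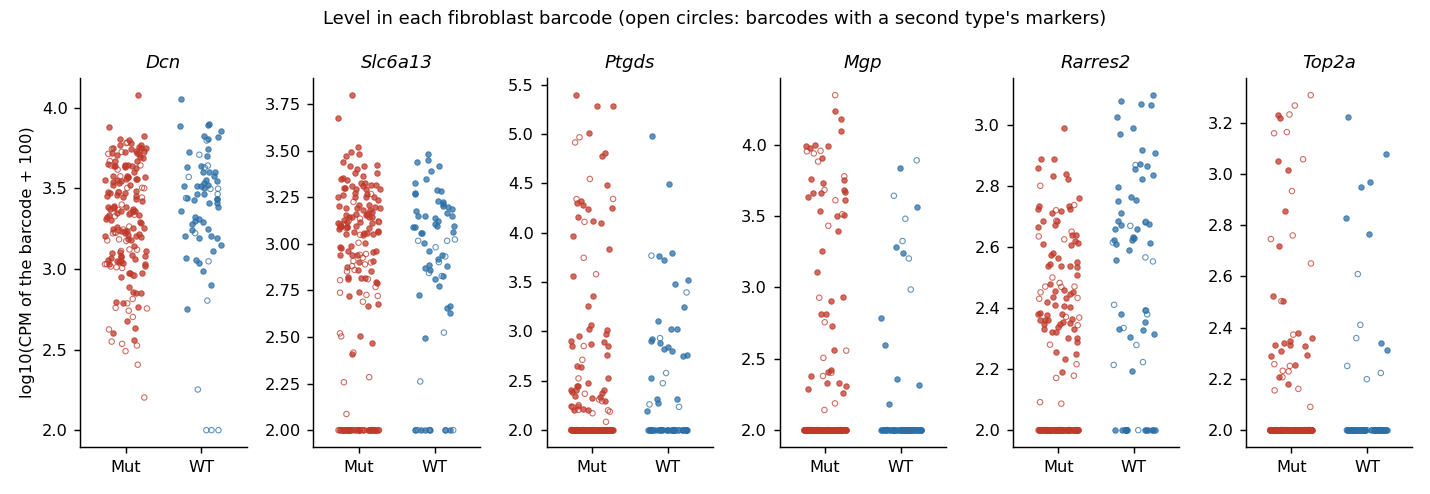
Level of 6 genes in each of the 181 Mut and 70 WT fibroblast barcodes, as log10(CPM + 100), so that a barcode with no UMI lies at 2, and each panel has its own scale. Dcn reaches similar heights in both libraries, the highest Ptgds and Mgp barcodes are in Mut, and most WT barcodes have Rarres2.

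Rarres2 was lower in Mut fibroblasts. It encodes the chemoattractant chemerin and had 106 CPM in Mut and 296 CPM in WT fibroblasts, a ratio of 0.359 (0.295 to 0.438). The log2 ratio was -1.43, and it was -1.42 without mixed barcodes and -1.85 in female cells. In male cells Rarres2 had 125 CPM in Mut and 145 CPM in WT, a log2 ratio of -0.20, which is within 1.5-fold. UMIs were found in 93 of 181 Mut (51.4%) and 54 of 70 WT (77.1%) barcodes, against 0.73% of Mut macrophages and 0 of 112 WT macrophages, which allows a share of up to 2.68%. In the other kept barcodes Rarres2 had 15.5 CPM in both Mut and WT, but mural cells among them had 239 CPM in Mut and 262 CPM in WT.

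Mmp23, a membrane-anchored metalloprotease, had 42.9 CPM in Mut and 104 CPM in WT, with log2 ratios of -1.19, -1.15 without mixed barcodes and -0.99 in female cells. Col22a1, a collagen of tissue junctions, had 30.2 CPM in Mut and 72.3 CPM in WT, with a log2 ratio of -1.14 that was -0.58 in female cells. The actin-binding genes Tagln and Tpm2 and the LIM-domain gene Crip1 had log2 ratios of -1.11, -1.05 and -1.19, which were -0.95, -0.69 and -1.09 without mixed barcodes. Ndufa4l2, which pericytes also express strongly, had a log2 ratio of -1.37, which was -0.56 without them. Gng2, a G protein gamma subunit, had 36.0 CPM in Mut and 84.8 CPM in WT, a log2 ratio of -1.13 that was -0.60 in female cells.

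The other 4 genes of the lower set had like ratios in the other barcodes or are uncertain. Gm42418, which overlaps ribosomal RNA sequence, had a log2 ratio of -1.36 in fibroblasts and -1.43 in all other kept barcodes. For Lars2, a mitochondrial leucyl-tRNA synthetase, these were -1.14 and -1.04, and for the ribosomal protein gene Rpl29 -1.38 and -1.36. Within female fibroblasts the ratio for Rpl29 was -0.24, and within male fibroblasts -5.28. Gm10320 had a log2 ratio of -1.13, which was -0.19 in female cells. Rpl29 and Gm10320 have near-identical copies in the genome, so their counts are uncertain.

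**Figure D5:**
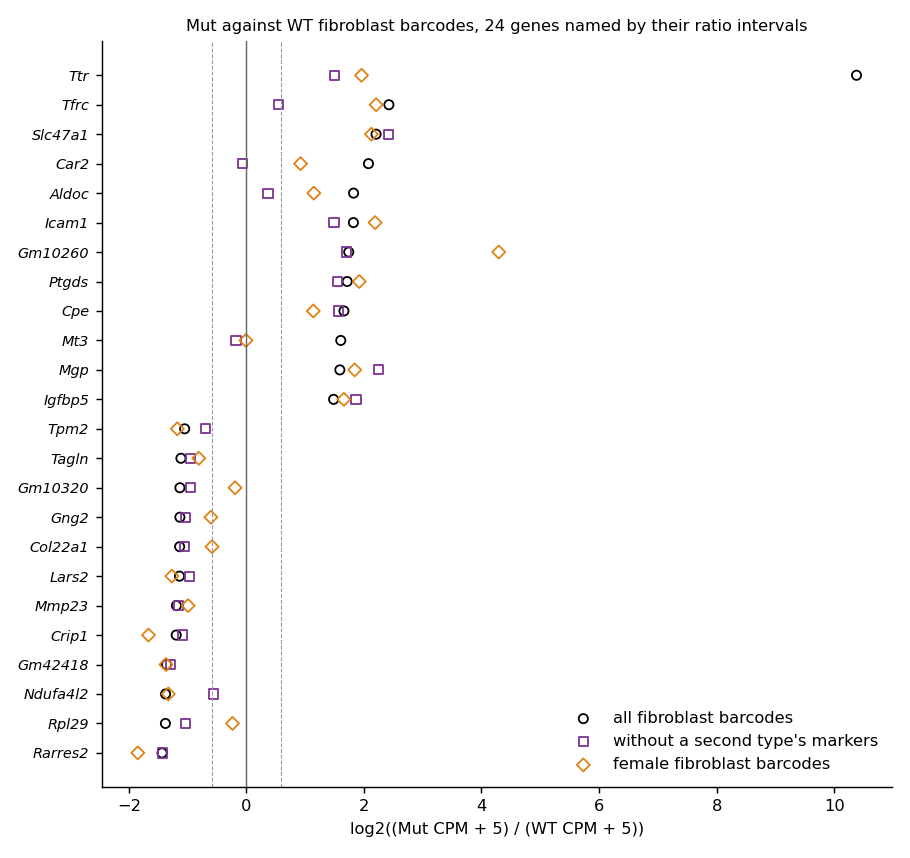
Log2 ratio of Mut to WT, after adding 5 CPM, for 24 genes in all fibroblast barcodes, in those without mixed barcodes and in female barcodes, with dashed lines at 1.5-fold. Ptgds, Slc47a1, Mgp and Igfbp5 stay to the right and Rarres2 and Mmp23 to the left in all 3 sets, whereas Car2 and Mt3 come to lie at about 0 without mixed barcodes.

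The list of barrier transporters held many genes higher in Mut. It also counts Ptgds, which is a synthase and not a transporter, among its higher genes. Of 31 with at least 30 UMIs, 14 were at least 1.5-fold higher in Mut, against 10.2% of all genes, and none was lower, and the median log2 ratio was 0.25. Without mixed barcodes, 9 of 22 were higher, against 11.6% of all genes, and none lower. In female cells 13 of 26 were higher and 1 lower, against 9.9% and 5.39%. The members were of more than 1 kind. The organic anion transporter Slc22a8 had 94.7 CPM in Mut and 45.9 CPM in WT, a log2 ratio of 0.97 and of 0.58 without mixed barcodes. The taurine transporter Slc6a6 had 135 CPM in Mut and 72.3 CPM in WT, and the bicarbonate transporter Slc4a10 had 99.5 and 52.8 CPM, and both mark the group led by Ecrg4 and Mgp. Slco1c1 and Aqp4, known from endothelial cells and astrocytes, had log2 ratios of 1.15 and 1.51. Without mixed barcodes Slco1c1 had 3.76 CPM in Mut and 12.5 CPM in WT, and the ratio of Aqp4 was 0.14. Slc6a13 and Slc22a6 had log2 ratios of -0.13 and -0.09.

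Of 24 ligands, receptors, antagonists and targets of the transforming growth factor beta and BMP pathways, 6 were at least 1.5-fold higher in Mut, against 10.2% of all genes, and none lower. Without mixed barcodes 6 of 22 were higher, against 11.6%, and in female cells 4 of 20, against 9.9%. Tgfb3, a ligand, had 30.2 CPM in Mut and 4.17 CPM in WT, Gdf10, another ligand, had 41.3 and 8.34 CPM, and the matrix target Tgfbi had 84.7 and 27.8 CPM. Their log2 ratios were 1.94, 1.79 and 1.45. In WT, 4.17 CPM is 3 UMIs, so the ratios of Tgfb3 and Gdf10 rest on very few WT UMIs. For these single genes, ratios without mixed barcodes are not given here. The receptors Tgfbr1 and Tgfbr2, with -0.04 and -0.08, and the ligands Bmp4, Bmp6 and Bmp7, with 0.07, -0.29 and -0.13, did not differ by this much. Of 21 Wnt pathway genes, 2 were higher and 1 lower, against 10.2% and 3.51% of all genes. Sfrp4, a secreted Wnt inhibitor, had 49.2 CPM in Mut and 5.56 CPM in WT, and Rspo3, which enhances Wnt signals, had 73.0 and 25.0 CPM. The WT value of Sfrp4 likewise rests on very few UMIs. Wnt6 was lower, with 66.1 CPM in Mut and 136 CPM in WT.

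Immediate early and stress genes, which respond to handling of tissue as well as to signals, had more higher than lower members in Mut fibroblasts. Of 21, 5 were at least 1.5-fold higher, against 10.2% of all genes, and none lower. The median log2 ratio was 0.42, whereas in the other kept barcodes the median ratio of the same genes was 0.17. Without mixed barcodes 11 of 21 were higher, against 11.6%. Atf3, a stress-induced factor, had 320.1 CPM in Mut and 147 CPM in WT. It was found in 109 of 181 Mut (60.2%) and 25 of 70 WT (35.7%) fibroblasts, and in 57.3% of Mut and 61.6% of WT macrophages. Fos had 2565 CPM in Mut and 1822 CPM in WT, and Egr1 997 and 650 CPM.

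Several genes of dividing cells were lower in Mut, and their number depended on the mixed barcodes. Of 24, none was at least 1.5-fold higher and 7 were at least 1.5-fold lower, against 3.51% of all genes, with a median log2 ratio of -0.35. Without mixed barcodes, 21 of 22 were lower, against 5.25%, and the list summed to 1004 CPM in Mut and 2446 CPM in WT. Over all fibroblasts, 57 of 181 Mut and 22 of 70 WT barcodes had at least 4 genes of the list. Their median barcode had 310 CPM of the list in Mut and 251 CPM in WT. Leaving out mixed barcodes also took out every Mut barcode above 19518 UMIs and every WT barcode above 19233 UMIs. The part of depth in this change was not tested. For Top2a, which untangles replicated DNA, the sign turned. It had 163 CPM in Mut and 144 CPM in WT, a log2 ratio of 0.17, which was -0.98 without mixed barcodes. UMIs of Top2a were found in 41 of 181 Mut (22.7%) and 14 of 70 WT barcodes, and in 13.5% of Mut and 14.3% of WT macrophages. The few barcodes behind this sum limit it. The 5 highest barcodes held 65.9% of the Mki67 UMIs in Mut and 80.3% in WT.

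Of 21 junction genes, 6 were at least 1.5-fold higher and 1 at least 1.5-fold lower in Mut, against 10.2% and 3.51% of all genes. Without mixed barcodes 2 of 17 were higher, against 11.6% of all genes. Of 12 contractile genes, 4 were at least 1.5-fold lower in Mut, against 3.51% of all genes, and none higher, with a median log2 ratio of -0.36. Without mixed barcodes 2 of 11 were lower, against 5.25%, and the median was -0.13. Acta2, smooth muscle actin, had 1 UMI in Mut and 65 in WT, which came from 5 WT barcodes, and the mural list summed to 2089 CPM in Mut and 3407 CPM in WT. Without mixed barcodes the mural list summed to 2791 and 3674 CPM. Of its 3947 Mut and 2452 WT UMIs over all fibroblasts, Rgs5, a gene of the list, gave 12 and 161. The sum is thus not a measure of mural RNA alone, and the part of mural RNA in the contractile ratios was not tested. Mitochondrial transcripts had a median log2 ratio of -0.26 in fibroblasts and -0.17 in the other barcodes. Of 16 complement and immune genes, 4 were at least 1.5-fold higher and 3 at least 1.5-fold lower in Mut. The shares over all genes were 10.2% and 3.51%. The class I histocompatibility genes H2-K1 and H2-D1 had 92.1 and 154 CPM in Mut and 32.0 and 51.4 CPM in WT. In the other barcodes their log2 ratios were 0.46 and 0.48, against 1.39 and 1.49 in fibroblasts. The fibroblast ratios include mixed barcodes, with which the endothelial list summed to 657 CPM in Mut and 302 CPM in WT. Without mixed barcodes that list summed to 161 and 181 CPM. The part of mixed barcodes in the ratios of H2-K1 and H2-D1 was not tested.

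Genes of the katanin family and of vesicle traffic, which the study's title concerns, were mostly within 1.5-fold. Of 29 with at least 30 UMIs, 1 was at least 1.5-fold higher and 2 at least 1.5-fold lower in Mut. The shares over all genes were 10.2% and 3.51%, and the median log2 ratio of the 29 was 0.02. Katna1, a katanin subunit, had 32.3 CPM in Mut and 26.4 CPM in WT, and a log2 ratio of 0.25 that was 0.72 without mixed barcodes. The recycling endosome gene Rab11a had 127 CPM in Mut and 101 CPM in WT. Of 16 planar polarity genes, 2 were higher and 1 lower, against the same 10.2% and 3.51%, with a median of 0.12. Vangl2, a core planar polarity gene, had 32.3 CPM in Mut and 27.8 CPM in WT.

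Of the 9 dural markers with at least 30 UMIs, 2 were at least 1.5-fold higher in Mut, against 10.2% of all genes, and 0 lower, with a median log2 ratio of 0.30. Without mixed barcodes 4 of 8 were higher, against 11.6%, and the median was 0.88. The dural markers Mgp, Ccn3 and Fxyd5 are leading genes of the group led by Ecrg4 and Mgp, with 21 Mut and 4 WT barcodes. The part of that group in the dural median was not tested. The 7 pial markers had a median of -0.11, the 10 arachnoid markers -0.11 and the 5 perivascular markers 0.18. Without mixed barcodes these medians were -0.15, 0.10 and 0.22. Among matrix lists, 9 small proteoglycans had a median of -0.13, 25 adhesive and elastic glycoproteins -0.12, 23 collagen-assembly genes -0.04 and 22 matrix proteases and inhibitors 0.04. These matrix lists held 1, 2, 0 and 3 higher and 1, 3, 2 and 1 lower genes. Insulin-like growth factor genes (14) and imprinted genes (16) had medians of 0.01 and 0.06, with 2 and 3 higher and 0 and 1 lower. For comparison with these lists, 10.2% of all genes were higher and 3.51% lower.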

How the data were processed

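The authors deposited raw UMI counts per gene and barcode, with every barcode kept, in files whose headers name Cell Ranger 4. The build GRCm38 and the aligner STAR are listed per the submitters' processing notes. No further step was given in the sources used here. Barcodes with at least 1000 UMIs, 500 genes and at most 20% mitochondrial UMIs were kept. The series' design text speaks of replicates, but the barcodes of a library carry 1 suffix, so each genotype is 1 sample.

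Counts of the fibroblast barcodes were summed per library, scaled to CPM and compared as log2 ratios after adding 5 CPM. Genes with at least 30 UMIs were counted as higher or lower at 1.5-fold. Sums carry Poisson, shares Clopper-Pearson and ratios conditional binomial exact 95% intervals (scipy 1.17.1). UMIs of 1 barcode are not independent, so these intervals cover counting error only. Named genes had at least 100 UMIs and a UMI in at least 10% of the fibroblasts of the higher library. The 12 with the highest lower bound of the ratio's interval and the 12 with the lowest upper bound were taken, leaving out genes of the rule, mitochondrial, haemoglobin and sex-linked genes. The 30 profile genes, at 100 CPM or more in both libraries, had the highest ratio to the other kept barcodes. Groups came from Leiden clustering in scanpy 1.11.5 (1000 variable genes, 10 components, 10 neighbours, resolution 0.7). Left out of it were genes of the rule, mitochondrial, haemoglobin and sex-linked genes, and the cell division and immediate early lists. Doublets were left in, and were removed in an alternative scored with Scrublet. The members, the gene lists and the rules were chosen with earlier results of these data known, and mixed barcodes of every type were defined after seeing the data. Of 720 listed symbols, 713 matched directly and 4 by an older name. Genes of the rule stayed in the lists that hold them, so counts and medians of those lists draw in part on the rule. Promoter windows came from RefSeq. Calculations were tested on simulated data.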

Additional observations from a re-analysis of the deposited data

Results flagged for a closer look

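The ratio of the fibroblast share between Mut and WT was 12 in male cells and 0.998 in female cells. The difference between the sexes was not tested, since each library is 1 sample. Leaving out mixed barcodes gave 11 and 0.971.

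Gm10260 had a log2 ratio of Mut to WT of 4.29 in female fibroblasts and -1.28 in male fibroblasts. This difference was not tested, and the WT male value rests on 9 barcodes.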

How the results depend on the processing

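No paired analysis was possible because each genotype has 1 library. The ratio of shares was 0.998 in female cells, 0.971 in female cells without mixed barcodes and 12 in male cells, and above 1 in the other alternatives tried. The 891 genes higher in Mut became 186 with barcodes thinned to 1000 UMIs, 342 with 20 CPM added, 1465 at 10 and 271 at 100 UMIs per gene, and 491 in female cells without mixed barcodes. The 308 lower genes became 589 in male cells, 129 thinned, 102 with 20 CPM added, and 570 at 10 and 100 at 100 UMIs per gene. Log2 ratios reversed for Car2 (-0.0659 without mixed barcodes, -0.19 also in female cells only), Mgp (-0.45 without mixed barcodes and the group led by Ecrg4 and Mgp), Gm10260 (-1.28 in male cells), Crip1 (0.45 in male cells) and Rpl29 (0.0382 in female cells without mixed barcodes). Mt3 was -0.0068 in female cells, -0.18 without mixed barcodes, -0.0513 also without that group and -0.65 in female cells without mixed barcodes. The cause was not tested, except that fewer genes enter at higher minimum counts and after thinning. For named genes, 311 alternative values stayed close, 111 moved and 10 reversed. These counts include the settings of minimum UMIs per gene, which cannot change the ratio of a single gene. For list medians, 348 stayed close and 210 moved. Some medians near 0 changed sign, those of fibrillar and fibril-associated collagens, arachnoid markers, adhesive glycoproteins and secreted signals among them. In male cells Rarres2 was -0.20, within 1.5-fold. With 9 male WT fibroblasts, male values are imprecise.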
